A study of Peromyscus maniculatus with 6 samples.

Results

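The genes described here make the vesicle coats and helper proteins that carry cargo between the endoplasmic reticulum (ER) and the Golgi in deer mouse ear fibroblasts treated with tunicamycin. They were chosen by symbol from a list of 53, grouped by role as coat, cargo receptor, tether or fusion protein, or CREB3-type transcription factor. Of these, 47 are named in the deposited table of 24281 genes and all 47 passed the filter on low counts. Sec23a, Sec31a, Mia2, Copa, Tmed2 and Tmed10 are not named in that table and were not analysed here.

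COPII is the coat that buds vesicles off the ER at exit sites. The GTPase SAR1, switched on by the exchange factor PREB, recruits SEC23 and SEC24, which select cargo, and SEC13 with SEC31 form the outer cage. COPI, a coatomer recruited by ARF GTPases, returns escaped ER proteins and cargo receptors from the Golgi, and KDEL receptors hand it soluble chaperones that have leaked out. Vesicles are then caught by tethers and fused by SNARE proteins. CREB3-type factors are made as ER membrane proteins that are cut free in the Golgi, and they, together with the splicing-activated factor XBP1, are known to drive secretory genes when cells make or misfold much secreted protein.

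The ears of 3 deer mice of the BW stock (Peromyscus maniculatus, 4 weeks old) gave primary fibroblasts; the animals are named BW35770, BW35772 and BW35773, and the cells were passaged in culture. Each animal gave 1 control library and 1 library of cells treated with tunicamycin for 5 h, which blocks N-linked glycosylation and so makes ER proteins misfold. The label gives the concentration as 5 mg per mL, which could not be checked, and no vehicle is named for the controls. The labels do not say whether wells were pooled.

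Libraries held 37852385 to 49352126 counts on genes, so counting error was small even for Tmed5, the lowest member per kb, at 295 to 628 counts. The stress response was present, as Ddit3 rose by 3.95 ± 0.23 and Dnajb9 by 2.55 ± 0.15 on the log2 scale (SE, n = 3 animals, edgeR adjusted p = 0.000488 each). Fibroblast markers (9 of 10 named in the table, Dcn not among them) summed to 13700 to 17800 CPM (read counts scaled to library size) in controls and 13700 to 15900 CPM with tunicamycin, most of it Vim (8732 to 9763 CPM in controls). Single markers set BW35770 apart: its control held 751.8 CPM of Thy1, against 85.2 and 118.0 in BW35772 and BW35773, and 499.9 CPM of Col3a1, against 1469 and 1482 (animal term in the blocked fit, edgeR adjusted p = 0.0011 and 0.004). Cartilage markers summed to 1870 CPM in the control of BW35770, against 8340 and 7130 CPM in the controls of BW35772 and BW35773, so the cultures differed there too. In the controls of BW35772 and BW35773, the cartilage collagen Col2a1 (5999 and 4538 CPM) lay above Col1a1 (2857 and 2708) and Col1a2 (2463 and 2979). In that of BW35770 it lay below both (742.6 CPM, against 1107 and 1792). Acan, Comp and Col9a1 were also lowest in the control of BW35770 (835.9, 16.6 and 33.5 CPM). The control of BW35772 held 1745, 106.3 and 183.4 CPM of them, and that of BW35773 held 2102, 53.9 and 129.7. Sox9 stood at 238.6 to 309.3 CPM in controls, Matn3 at 1.07 to 1.75 and Matn1 at 0. In bulk RNA, fewer cells of a type and less RNA per cell cannot be told apart. Keratinocyte markers reached at most 23.0 CPM, endothelial 4.68 and melanocyte 0.93, with Krt1 at 0 in all libraries. Krt14 made up most of the keratinocyte sum and was lower with tunicamycin in all 3 animals (4.51 to 2.23, 8.99 to 3.92 and 22.7 to 12.2 CPM), called with the block (-1.04 on the log2 scale, edgeR adjusted p = 0.02) and not without it (0.622). Schwann cell markers summed to 72.1 to 127 CPM in controls and 48.2 to 84.5 CPM with tunicamycin, nearly all S100b, which was called lower with the block (-0.70, edgeR adjusted p = 0.0194) and not without it (0.277), while Sox10 stayed at or under 0.12 CPM. Skeletal muscle markers summed to 17.8 to 23.3 CPM in controls and 14.9 to 17.8 CPM with tunicamycin, nearly all Acta1. Des, Myh4 and Ckm reached at most 0.87, 0.13 and 0.08 CPM in any library. The part of these marker differences in the transport genes' values was not tested. The leukocyte sum of 86.5 to 176 CPM in controls was almost all Cd68, while Cd3e was at 0 in all libraries and Ptprc at 0 or 0.03 CPM in controls.

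Most of the 47 transport genes showed no called change. Of them 2 rose (Stx5a and Sec23b) and 0 fell in edgeR's quasi-likelihood test (adjusted p under 0.05 over 13503 genes), where 1.78% of all tested genes rose and 0.792% fell. Before adjustment, 7 members lay higher and 2 lower at an edgeR p under 0.05, as did 8.88% and 6.64% of all genes. The median log2 fold change was -0.015 (22 above 0 and 25 below), against -0.01 over all tested genes, of which 48.5% were above 0. For 45 of 47 members the 95% interval of the log2 fold change lay within a 2-fold change either way, and for 30 it lay within 1.5-fold. Stx5a and Creb3l2 were the members whose interval reached past 2-fold. These genes took 0.722 to 0.777% of the raw counts in controls and 0.744 to 0.842% with tunicamycin. That raw share was higher in each of the 3 treated libraries than in its control, but it lacks the TMM scaling used for CPM. A higher TMM factor lowers the scaled level. The treated library had the higher factor in BW35770 (1.02 against 0.9757) and BW35772 (1.059 against 0.9643), and the lower in BW35773 (0.9857 against 0.9982). With library size only, the median log2 fold change was 0.048.

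With the animal as a replicate block Arfgap3 was added, so that 3 members rose and 0 fell (3.07% and 2.4% of all genes). DESeq2 called 5 higher and 0 lower, adding Preb and Mcfd2 to those 3 (5.03% and 2.97% of all genes). In limma-voom 1 member rose, Stx5a, and 0 fell (1.61% and 0.77% of all genes). When any single library was left out, Stx5a alone was called. The share of all genes that rose was then 0.577, 0.371 and 0.334% without the control of BW35770, BW35772 and BW35773, and 0.71, 1.24 and 2.28% without their tunicamycin libraries. In the same order, the share that fell was 0.248, 0.109 and 0.138% for the controls left out and 0.271, 0.437 and 1.82% for the treated libraries left out. Tunicamycin and control libraries did not overlap for 7 members that lay higher and 3 that lay lower, where 12.3% and 9.98% of all genes did so. In all 3 animals 14 members lay higher and 4 lower, where 20.7% and 21.7% of all genes did.

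**Figure D1:**
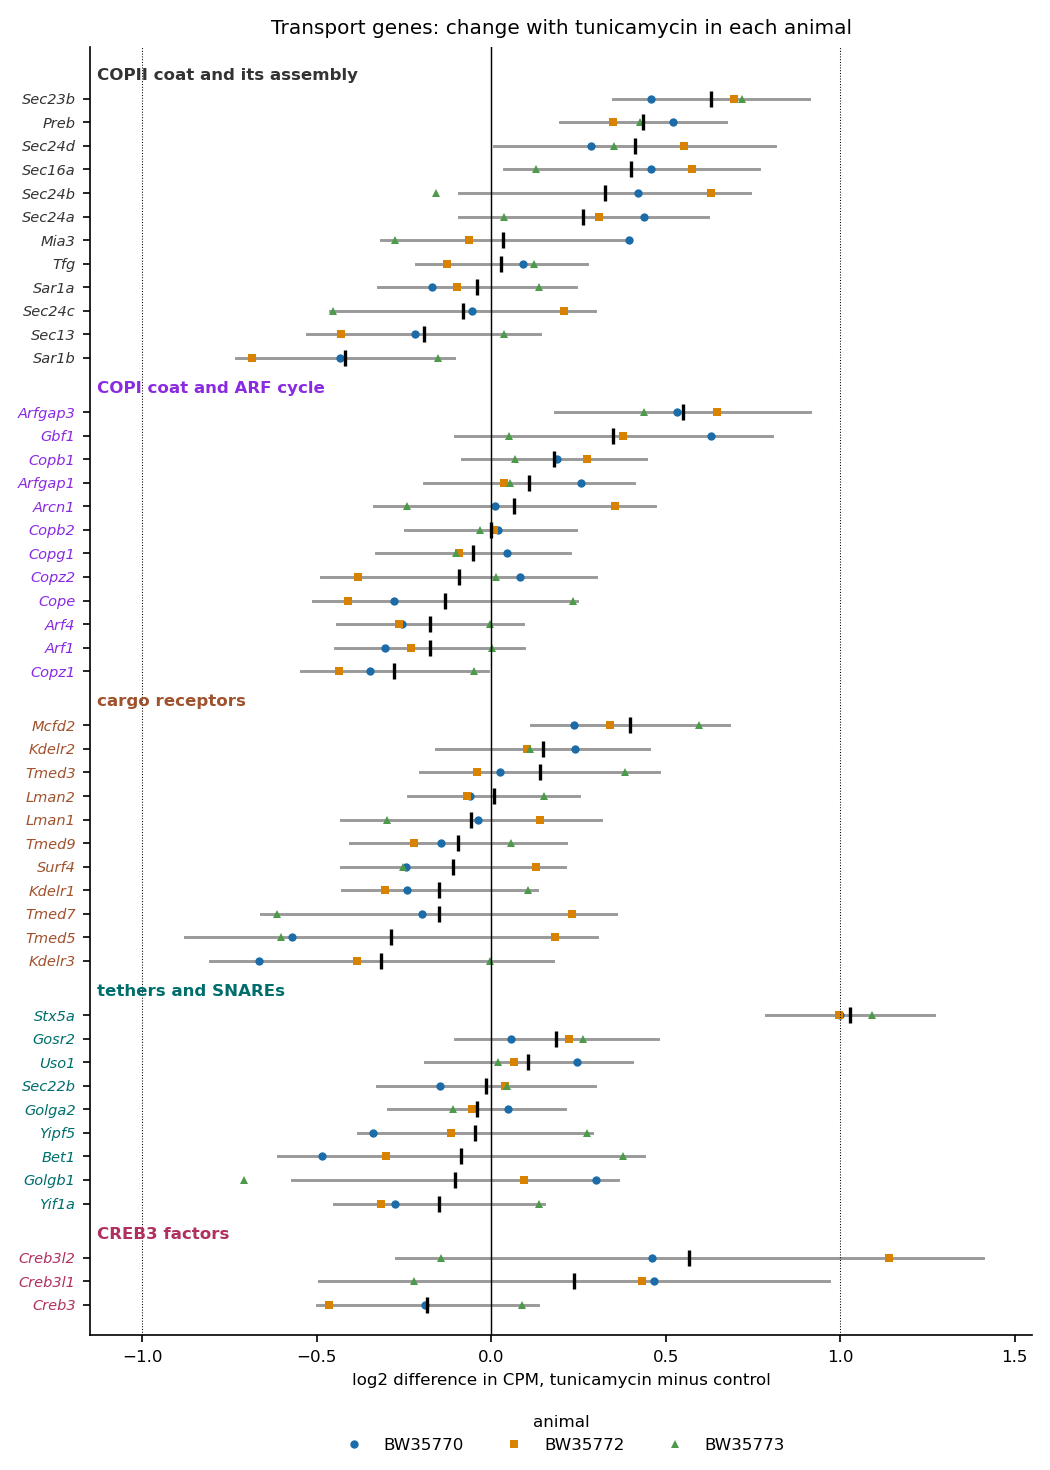
Log2 difference in CPM between tunicamycin and control for 47 transport genes in 5 role groups. Coloured points are the 3 animals, black ticks the fitted log2 fold change and grey lines its 95% interval; dotted lines mark a 2-fold change. Stx5a stands at 1.03 with its 3 animals together, and the other ticks lie between -0.42 and 0.63.

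Stx5a had the largest log2 fold change of the 47 genes. It encodes syntaxin 5, the SNARE of the cis-Golgi at which vesicles from the ER fuse (ENSPEMG00000017791, scaffold KI616186.1, bases 294148 to 308251, plus strand, 11 exons, no other gene's exon overlapping). Control libraries of BW35770, BW35772 and BW35773 held 92.8, 90.0 and 82.9 CPM, and tunicamycin libraries 185.9, 179.8 and 176.5 CPM. Every treated library was thus about double its control, with no overlap between groups. Means were 88.6 ± 5.10 and 180.7 ± 4.73 CPM (SD, n = 3), and the fitted log2 fold change was 1.03 ± 0.10 (SE, 95% interval 0.79 to 1.27, edgeR adjusted p = 0.00399). Differences within the animals were 1.00, 1.00 and 1.09. The call was lost only in the blocked fit without animal BW35770 (edgeR adjusted p = 0.063, log2 fold change 1.05), among 19 other settings.

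None of the SNARE partners of syntaxin 5 was called. GOSR2, BET1 and SEC22B join syntaxin 5 in the complex that fuses ER-derived vesicles. Gosr2 had means of 30.0 ± 0.76 (control) and 34.1 ± 3.30 CPM (tunicamycin), a log2 fold change of 0.19 with a 95% interval of -0.11 to 0.48. Sec22b stood at 197.5 ± 13.5 and 195.5 ± 26.1 CPM, with an interval of -0.33 to 0.30. Bet1 went from 58.8 to 42.0 CPM in BW35770 and from 66.7 to 54.1 in BW35772, but from 61.8 to 80.3 in BW35773, an interval of -0.61 to 0.44. The upper ends of their intervals lie below the lower end for Stx5a. Differences between genes were not tested.

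The tethers gave no call. Golgb1 encodes giantin, a long golgin that holds COPI vesicles at the Golgi rim, and had one of the lowest levels per kb of exon (7.80 ± 1.54 CPM per kb in controls). The 3 cultures differed in direction, as it went from 57.6 to 71.0 CPM in BW35770, from 74.4 to 79.4 in BW35772 and from 86.2 to 52.7 in BW35773. The fitted log2 fold change of -0.10 therefore joins 2 animals on one side and 1 on the other, and was 0.22 in the blocked fit without BW35773. Golga2, which encodes the golgin GM130, stayed within 180.0 to 208.8 CPM in all 6 libraries, and Uso1, the vesicle tether p115, within 161.8 to 214.4 CPM. Yif1a and Yipf5, membrane proteins that cycle between ER and Golgi, lay lower in 2 treated cultures and higher in that of BW35773. For Yif1a, the lowest of the group, the log2 fold change was -0.15 (65.7 ± 5.73 to 59.2 ± 6.54 CPM).

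Within the COPII coat, 1 of 12 tested genes rose and 0 fell, 8 had a log2 fold change above 0, and the median was 0.15, where 1.78% of all genes rose, 0.792% fell and 48.5% were above 0. Sec23b, the inner-coat subunit that triggers GTP hydrolysis by SAR1, was the gene called (ENSPEMG00000019699, scaffold KI615548.1, bases 1184825 to 1225832, plus strand, 20 exons). Controls were tightly grouped at 59.7, 61.6 and 61.7 CPM, and treated libraries held 82.0, 99.9 and 101.5 CPM in the order BW35770, BW35772, BW35773. All treated values lay above all controls, by least in BW35770. The log2 fold change was 0.63 ± 0.12 (edgeR adjusted p = 0.0425, and 0.0265 with the replicate block). Sec23b was not called in limma-voom (adjusted p = 0.0501), when any single library was left out (edgeR adjusted p from 0.052 to 0.21), or in the blocked fit without BW35770 (0.23). The estimate itself stayed between 0.59 and 0.72 over these and the other settings. Its paralog Sec23a is among the genes not named in the table, so the balance of the pair could not be given.

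SEC24 binds the cargo, and its forms have different cargo preferences. Sec24d, the form closest to Sec24c, went from 60.7 to 74.1 CPM in BW35770, from 76.1 to 111.6 in BW35772 and from 73.4 to 93.7 in BW35773. Treated values lay above the matching control in every culture, but the groups overlap, with BW35770 lowest in both. The log2 fold change was 0.41 ± 0.17 and was not called (edgeR adjusted p = 0.312, and 0.1 with the block). Sec24d was called only in the blocked fit without BW35773, at 0.45 (edgeR adjusted p = 0.0496). Part of its exons overlaps an unnamed gene on the same strand, and the sources used here do not say how such reads were assigned. Sec24a and Sec24b had log2 fold changes of 0.26 and 0.33, with edgeR adjusted p = 0.484 and 0.454, and Sec24b was lower in BW35773 (62.4 to 55.9 CPM) while higher in the others. Sec24c, the most abundant form per kb, held 110.7 to 127.9 CPM in controls and 93.4 to 139.4 CPM with tunicamycin.

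Neither the activator of SAR1 nor SAR1 itself was called. Preb, the ER membrane protein that loads SAR1 with GTP, had controls between 62.3 and 63.3 CPM and treated libraries at 89.4, 80.7 and 84.8 CPM. The groups were well apart relative to this small spread, yet the estimate of 0.43 ± 0.10 on the log2 scale missed the threshold (edgeR adjusted p = 0.0822, or 0.0742 when blocked by animal). It was called by DESeq2 (adjusted p = 0.00223). An unnamed gene overlaps Preb on the other strand. Sar1b, the SAR1 form known for its role in lipoprotein export, had the lowest log2 fold change of the 47 genes. It went from 102.0 to 75.4 CPM in BW35770, from 98.7 to 61.3 in BW35772 and from 87.0 to 78.3 in BW35773, with no overlap between groups, and its value of -0.42 ± 0.13 on the log2 scale was not called (edgeR adjusted p = 0.178, or 0.124 when blocked by animal). Sar1a, the more abundant form, stayed between 286.6 and 351.8 CPM in all 6 libraries.

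No scaffold protein of the exit site was called. Sec16a, which organises exit sites, had 116.6 to 136.1 CPM in controls and 160.3, 202.8 and 140.0 CPM with tunicamycin, without overlap; the fitted value was 0.40 ± 0.16 on the log2 scale (edgeR adjusted p = 0.272). Mia3 encodes TANGO1, which fits bulky collagens into COPII carriers, and went from 113.8 to 149.5 CPM in BW35770, from 124.7 to 119.4 in BW35772 and from 126.7 to 104.5 in BW35773. Tfg, an organiser of COPII vesicles between ER and Golgi, held 176.1 to 192.8 CPM across all libraries. Sec13, shared by the outer cage and the nuclear pore, had a log2 fold change of -0.19, with BW35773 near 0 at 0.04.

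**Figure D2:**
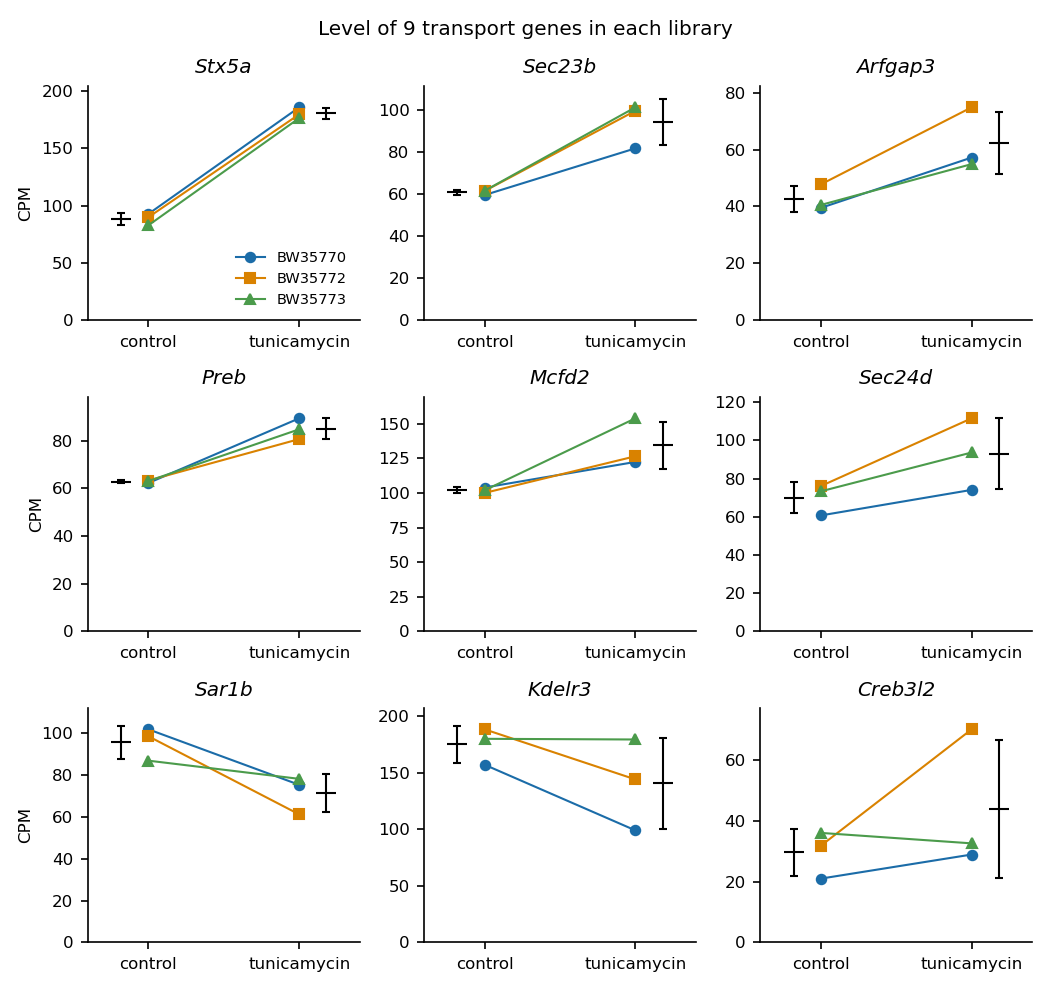
CPM of 9 transport genes in the 6 libraries; lines join the control and tunicamycin library of each animal, and black bars beside them are the mean and SD of 3 libraries. Stx5a, Sec23b, Arfgap3, Preb and Mcfd2 have all treated values above all controls, Sar1b has all below, and Sec24d, Kdelr3 and Creb3l2 overlap.

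No coatomer gene was called. Among 12 tested genes of the COPI coat and the ARF cycle 0 rose and 0 fell, where 1.78% and 0.792% of all genes did. Before adjustment Arfgap3 lay higher and Copz1 lower at an edgeR p under 0.05, where 8.88% and 6.64% of all genes did. DESeq2 called 1 higher, Arfgap3, and 0 lower, where it called 5.03% and 2.97% of all genes. Copb2, a coat subunit that reads retrieval signals, kept to 446.2 to 463.2 CPM over all 6 libraries, although its exons overlap those of Mrps22 on the other strand. Copg1 ranged from 446.3 to 528.0 CPM, and Arcn1, the delta subunit, from 62.6 to 96.3 CPM with its highest value in the treated culture of BW35772. Copb1 was higher in each animal (193.0 to 220.0, 209.4 to 253.4 and 214.6 to 225.2 CPM), a log2 fold change of 0.18 ± 0.11. Copz1, the common zeta subunit, was lower in each (186.5 to 146.4, 184.0 to 135.9 and 166.2 to 160.4 CPM), and its fitted value was -0.28 ± 0.12 on the log2 scale (edgeR adjusted p = 0.303). Neither difference passed the test. Cope, the epsilon subunit and the highest member per kb, went from 372.4 to 306.9 CPM in BW35770 and 398.9 to 299.9 in BW35772, but from 363.4 to 427.7 in BW35773. Copz2, a zeta form with narrower tissue use, had a log2 fold change of -0.09 that was 0.10 once each library's trend with exon length was removed.

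Arfgap3, a GTPase activator for ARF1 that lets the COPI coat come off, was the COPI gene with a call in the blocked fit (ENSPEMG00000021159, scaffold KI615457.1, bases 1654069 to 1700854, minus strand, 16 exons). It went from 39.5 to 57.2 CPM in BW35770, from 47.7 to 74.8 in BW35772 and from 40.5 to 54.9 in BW35773. BW35772 was highest in both groups, and the groups do not overlap. The log2 fold change was 0.55 ± 0.16, with edgeR adjusted p = 0.14 without the block and 0.0441 with it, and DESeq2 adjusted p = 0.0382. Its relative Arfgap1 held 92.7 to 120.3 CPM in controls and 110.8 to 123.4 with tunicamycin. Gbf1, the exchange factor that activates ARF at the Golgi, went from 154.9 to 239.6 CPM in BW35770 and 232.3 to 301.9 in BW35772, but only from 200.7 to 207.9 in BW35773 (log2 fold change 0.35 ± 0.20, edgeR adjusted p = 0.46). Arf1 and Arf4, the GTPases themselves, had log2 fold changes of -0.18 each, with values in BW35773 of 494.1 and 494.5 CPM for Arf1 and 471.8 and 470.2 CPM for Arf4. Exons of Arf1 overlap those of 2310033P09Rik on the other strand.

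Cargo receptors were also without a call: 0 of 11 rose and 0 fell, where 1.78% and 0.792% of all genes did. The median log2 fold change was -0.10. Before adjustment 1 lay higher and 0 lower at an edgeR p under 0.05, where 8.88% and 6.64% of all genes did. That 1 was Mcfd2, partner of LMAN1 in the export of coagulation factors, with controls at 102.0 ± 1.97 CPM (SD, n = 3; highest 103.9) and treated libraries at 122.4, 126.5 and 153.9 CPM in BW35770, BW35772 and BW35773. The groups do not overlap and the largest difference was in BW35773. The log2 fold change was 0.40 ± 0.12 (edgeR adjusted p = 0.164, DESeq2 adjusted p = 0.0487). DESeq2 called 1 of the 11 higher and 0 lower, where it called 5.03% and 2.97% of all genes. LMAN1 itself, a mannose lectin also called ERGIC-53, ranged from 111.4 to 153.2 CPM with overlapping groups, and the related lectin Lman2 from 192.4 to 213.9 CPM.

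The KDEL receptors, which retrieve BiP and other chaperones, did not share a direction. Kdelr2 was slightly higher in each animal (96.6 to 114.1, 124.5 to 133.7 and 110.8 to 119.7 CPM), a log2 fold change of 0.15 ± 0.13. Kdelr3 went from 157.1 to 99.0 CPM in BW35770, from 188.4 to 144.1 in BW35772 and from 180.0 to 179.4 in BW35773. Its log2 fold change was -0.32 ± 0.21 (edgeR adjusted p = 0.563), with the 95% interval from -0.81 to 0.18, and exons of Kdelr3 overlap those of Ddx17 on the other strand. In the blocked fit without BW35773 it was called lower (-0.50, edgeR adjusted p = 0.0348). Kdelr1, the most abundant cargo receptor per kb, had 259.7 to 306.7 CPM in controls and 248.1 to 279.4 with tunicamycin, a log2 fold change of -0.15.

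p24 proteins of the TMED family, which help to gather GPI-anchored and other cargo, were not called. Tmed5 was the least abundant member of all per kb (7.24 ± 0.70 CPM per kb in controls), with a log2 fold change of -0.29 and treated values of 6.57, 12.0 and 7.78 CPM against 9.79, 10.6 and 11.8 CPM. Tmed7 shares exons with Ticam2 on the same strand, and held 36.2 to 41.3 CPM in controls and 31.5, 48.4 and 27.0 CPM with tunicamycin. Tmed3 had a log2 fold change of 0.14, carried by BW35773 (157.4 to 205.4 CPM), and was at -0.01 without the tunicamycin library of that animal. Tmed9 ranged from 192.4 to 247.3 CPM. Surf4, a receptor that exports many soluble proteins, had controls of 222.0 to 226.0 CPM and treated values of 189.4, 247.0 and 186.3 CPM, a log2 fold change of -0.11 ± 0.14.

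None of the 3 CREB3 factors was called. Creb3l2, known as BBF2H7 and for activating Sec23a in cartilage cells, held 21.0, 31.8 and 36.0 CPM in controls and 28.9, 70.1 and 32.6 CPM with tunicamycin. Treated cells were thus highest above control in BW35772, less so in BW35770, and below it in BW35773. The log2 fold change was 0.57 ± 0.36 (95% interval -0.27 to 1.41, edgeR adjusted p = 0.536). Creb3l1, known as OASIS and for collagen export in bone, went from 22.6 to 31.2 CPM in BW35770, from 43.0 to 58.1 in BW35772 and from 37.2 to 31.9 in BW35773 (log2 fold change 0.24 ± 0.31). That value was -0.11 without the tunicamycin library of BW35772. Both were called higher in the blocked fit without BW35773, at 0.83 and 0.48 (edgeR adjusted p = 0.0288 and 0.0477). Creb3, or Luman, was the most abundant per kb, with a log2 fold change of -0.18 ± 0.14 and an interval of -0.50 to 0.14. Control levels of Creb3l1 and Creb3l2 were lowest in BW35770, the culture with the lowest cartilage markers, and the part of that difference in these values was not tested.

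Each animal gave 1 pair of libraries, so a difference in response between animals has no replicate and was not tested. Over the 47 genes (not independent replicates) Pearson's r of the log2 differences was 0.77 for BW35770 with BW35772, 0.34 for BW35770 with BW35773 and 0.21 for the remaining pair. Over all 13503 genes the same values were 0.56, 0.32 and 0.14, in the same order. In the blocked fit without BW35773, 10 members rose (21.3%) and 2 fell (4.26%), where 5.91% and 6.06% of all genes did. Those that rose were Sec23b, Sec24b, Sec24d, Sec16a, Preb, Arfgap3, Gbf1, Stx5a, Creb3l1 and Creb3l2, and those that fell were Sar1b and Kdelr3. Without BW35772 the blocked fit called Sec23b and Stx5a higher and 0 lower (3.65% and 3.32% of all genes), and without BW35770 it called 0 (0.547% of all genes rose and 0.274% fell). Levels averaged over treatment did not separate the animals by the test: 0 of 47 members passed for the animal term in the blocked fit (edgeR adjusted p under 0.05), where 3.53% of all genes did. The widest differences of that average were 0.94 for Creb3l2, 0.91 for Creb3l1 and 0.53 for Kdelr3 on the log2 scale.

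Exon length moved with these differences, and its part in them was not tested. Across the 47 genes the log2 difference was higher for genes with longer annotated exons in BW35770 (Spearman rho 0.42) and BW35772 (0.40) and not in BW35773 (-0.13), and over all tested genes rho was 0.28, 0.33 and -0.23. These are correlations across genes of shared libraries and carry no p. The 23 longer members (1944 to 9354 bases) had median differences of 0.26, 0.14 and 0.02 in BW35770, BW35772 and BW35773, and the 24 shorter ones (618 to 1903 bases) -0.20, -0.17 and 0.10. With each library's trend removed, Stx5a stood at 1.02 (edgeR adjusted p = 0.00165) and Sec23b at 0.60 (0.0397), and these 2 remained the members called (2.23% of all genes rose and 1.47% fell). Sec16a then stood at 0.28 in place of 0.40, Gbf1 at 0.27 in place of 0.35, Sar1b at -0.37 in place of -0.42 and Kdelr2 at 0.28 in place of 0.15. With the trend removed and the block, Sec23b, Preb, Arfgap3, Mcfd2 and Stx5a rose and 0 fell (5.39% and 5.57% of all genes).

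**Figure D3:**
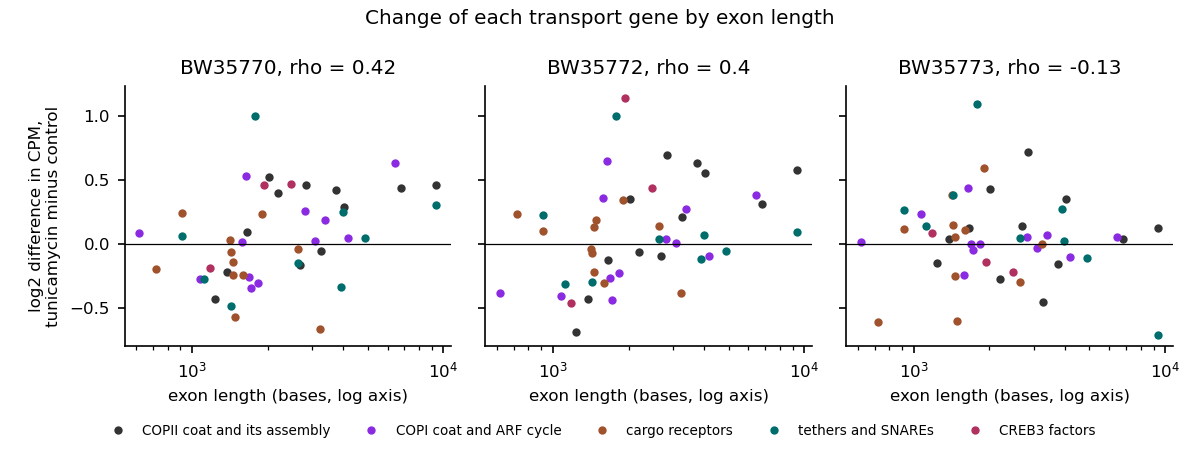
Log2 difference between tunicamycin and control for each of 47 transport genes against its exon length (log axis), 1 panel per animal, coloured by role. Long genes lie higher than short ones in BW35770 and BW35772 (rho 0.42 and 0.40) and not in BW35773 (rho -0.13).

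Levels per kb of exon, which allow genes to be compared, spanned 7.24 to 353 CPM per kb in controls, with a median of 54.0, against 8.85 over all tested genes. Cope came first at 352.5 ± 17.2, then Arf4 at 295.8 ± 15.7 and Arf1 at 283.0 ± 13.8, and the control ranges of Arf4 and Arf1 overlap while that of Cope lies above both. The 3 lowest were Sec24a at 8.87 ± 1.12, Golgb1 at 7.80 ± 1.54 and Tmed5 at 7.24 ± 0.70, whose ranges overlap. By role, median control levels were 111 for the COPI coat and ARF cycle, 108 for cargo receptors, 47.1 for tethers and SNAREs, 34.0 for the COPII coat and 15.2 for CREB3 factors. Coatomer subunits differed in RNA level: Copz2 stood at 180.2 ± 27.6, Copb2 at 147.9 ± 1.27, Copg1 at 118.0 ± 10.0, Copz1 at 103.7 ± 6.40, Copb1 at 60.7 ± 3.33 and Arcn1 at 45.6 ± 2.41 CPM per kb. Such levels depend on how fully each gene's exons are annotated.

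**Figure D4:**
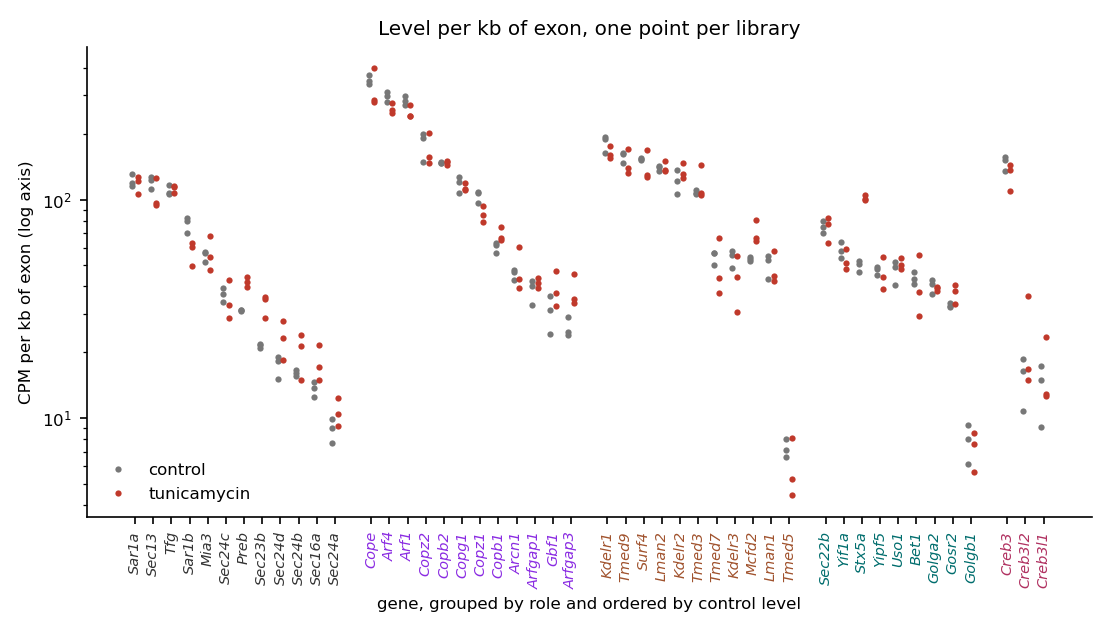
CPM per kb of exon (log axis) of each transport gene in 3 control (grey) and 3 tunicamycin (red) libraries, grouped by role and ordered by control level. Control means run from 353 for Cope to 7.24 for Tmed5, and for Stx5a and Sec23b the red points lie above the grey.

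Balance within gene families was followed as each paralog's share per kb of exon. Sec24c made up 46.7, 45.5 and 47.3% of Sec24 RNA in the controls of BW35770, BW35772 and BW35773 and 39.4, 40.0 and 37.7% with tunicamycin, lower in all 3 animals. Sec24d went from 22.0 ± 1.24 to 26.3 ± 4.23% (SD, n = 3), also in the same direction in all 3. Sar1b made up 40.8, 37.9 and 37.7% of Sar1 RNA in controls and 36.4, 28.8 and 33.2% with tunicamycin. Kdelr2 made up 30.9, 35.3 and 35.7% of its family in controls and 39.7, 42.3 and 36.3% with tunicamycin. For Sec24c, Sar1a, Sar1b and Kdelr2 the groups do not overlap, which gives the smallest p that 3 against 3 allows (two-sided exact permutation p = 0.1, 0.55 adjusted over 22 shares). Arf1 and Arf4 kept near-equal shares, 48.9 ± 1.12% for Arf1 in controls and 48.8 ± 0.50% with tunicamycin. The share of Creb3l2 in its family went from 8.81 to 21.3% in BW35772, with 6.13 to 9.05% in BW35770 and 11.0 to 9.68% in BW35773.

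**Figure D5:**
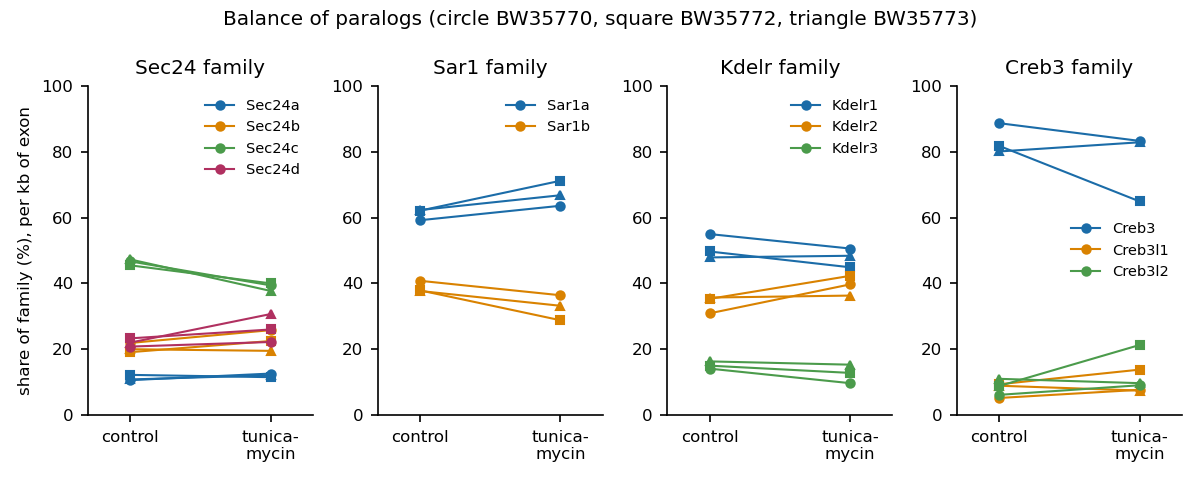
Share of each paralog in the RNA of its family (%, per kb of exon) in control and tunicamycin libraries, with a line for each animal. Sec24c lies at 45.5 to 47.3% in controls and 37.7 to 40.0% with tunicamycin, Sar1b at 37.7 to 40.8% and 28.8 to 36.4%, and Creb3 holds at least 64.9% of its family.

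Other genes of the route between ER and Golgi were tested in the same fit. Of 97 listed, 84 are named in the table and 83 were tested; 1 rose and 1 fell, near the 1.78% and 0.792% of all genes, or 2 and 1 with the block (3.07% and 2.4% of all genes), and the median log2 fold change was 0.03. Trappc1, a small core subunit of the TRAPP tethering complexes (658 bases of exon), fell from 45.0, 42.1 and 41.5 CPM in controls of BW35770, BW35772 and BW35773 to 17.1, 11.2 and 19.8 CPM. The fitted value was -1.42 ± 0.21 on the log2 scale (edgeR adjusted p = 0.0188, or 0.00628 when blocked by animal), larger in size than that of any coat, receptor or SNARE gene above. Without any 1 control, or without the tunicamycin library of BW35770, or in the blocked fit without that animal, its edgeR adjusted p was 0.063 to 0.1. Gcc1, a golgin of the trans-Golgi, rose from 44.7 ± 2.99 to 74.2 ± 3.29 CPM (0.73 ± 0.11, edgeR adjusted p = 0.0198). Its call was lost under the same 5 settings (0.061 to 0.21). Atf6, a stress sensor that is carried to the Golgi in COPII vesicles and cut there, was called higher with the block, at 0.82 ± 0.18 (edgeR adjusted p = 0.0466), and not without it (0.0624). DESeq2 called 4 of the 83 higher and 2 lower (5.03% and 2.97% of all genes). Beside Gcc1 and Trappc1, these were Atf6 (DESeq2 adjusted p = 0.00115), Golga5 (0.00734) and Cog3 (0.0268) higher, and Bcap29 (0.0108) lower. By list, genes called by edgeR without the block numbered 0 of 9 in Golgi-to-ER tethering and fusion, 0 of 12 RAB and ARF GTPases and 0 of 14 other cargo receptors. They numbered 0 of 10 other coat genes, 0 of 7 CREB3 relatives and their proteases, 1 of 21 TRAPP and COG genes and 1 of 10 golgins. Beside these stand the same 1.78% and 0.792% of all genes.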

How the data were processed

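The deposited table holds whole-number read counts per gene, made by the authors with STAR 2.6.1, SAMtools 1.6 and featureCounts (Subread), per the submitters' processing notes. Libraries were directional, per the labels' protocols, and the deposited table is marked strand-specific. The sources used here do not give the genome build, the annotation release or how multi-mapping reads were handled. Coordinates, IDs and exon lengths are those of the table.

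The tests used edgeR 4.0.16 under R 4.3.3 (filterByExpr at its count minimum of 10 and total minimum of 15, TMM scaling, two-sided quasi-likelihood test of treatment, Benjamini-Hochberg adjustment over 13503 tested genes, threshold 0.05). "Rose" and "fell" mean past it. SE is the size of the log2 fold change over the square root of F. CPM are TMM-scaled. For differences within an animal a prior count of 2 was added before taking log2 CPM. The edgeR fits without and with the animal block were run on simulated counts that held treatment changes and no animal effect. That run cannot show how well the block removes differences between animals. The other fits were not run on simulated counts.

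Titles name the animal, so libraries pair; deviations from group means correlated at 0.66, 0.41 and 0.22 in BW35770, BW35772 and BW35773 over genes. The paired fit has the animal as a block. Alternatives were other scalings, filters, DESeq2 1.42.0, limma-voom (limma 3.58.1), leaving out libraries or animals and, chosen after seeing the data, removing each library's trend with exon length (lowess, span 0.3). Without the block, the p-values for treatment reflect how far libraries of 3 animals vary within a group, with differences in level between animals included. With the block, they reflect how far the treatment difference varies among animals. Fits that leave out an animal rest on fewer animals.

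Members and lists were chosen with earlier results of these data known. A rule named the members called with or without the block, the extremes of each role group and of control level, and 9 fixed genes, 21 members in all. Values by library or summaries are given for these. A further 11 members with fold changes were chosen after their values were seen. Mia3 and Tmed7, given with values by library, are outside both sets.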

Additional observations from a re-analysis of the deposited data

How the results depend on the processing

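The number of members that rose was 2 as reported. It was 5 in DESeq2 and in the fit with the exon length trend removed and the replicate block, and 1 in limma-voom. With the replicate block alone it was 3. Leaving out each single library gave 1 to 1, as Sec23b lost its call without any of the 6. The blocked fit gave 0 without BW35770 and 10 without BW35773, where 2 members fell. No member fell under the other settings. The median log2 fold change, -0.015 as reported, was -0.004 with DESeq2 size factors, -0.004 in DESeq2, 0.048 with library size only, 0.003 with the exon length trend removed, and 0.021 and 0.041 in the blocked fits without BW35770 and without BW35773. Single libraries left out gave -0.020 to 0.047. Members near 0 changed sign under some settings. Bet1 stood at 0.039 in the blocked fit without BW35770, and Sec22b at 0.042 there and at 0.048 with library size only. Copz2 stood at 0.047 in the blocked fit without BW35772 and at 0.101 and 0.116 with the length trend removed, without and with the block. Golgb1 stood at 0.224 in the blocked fit without BW35773. With single libraries left out, Bet1 ran from -0.357 to 0.107, Copz2 ran from -0.223 to 0.006, Creb3l1 ran from -0.108 to 0.47, Golgb1 ran from -0.247 to 0.066, Sec22b ran from -0.084 to 0.09 and Tmed3 from -0.006 to 0.236. The cause of these changes was not tested. Without division by exon length, all paralog shares kept the direction of their mean difference. Within animals, Kdelr1 in BW35770 changed direction, from -4.37 percentage points per kb to 0.178 on counts. Precision rests on 3 animals, and no setting varied the depth.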

Other observations

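Sar1b and Sec24a lie next to each other on scaffold KI615836.1, on opposite strands and with 8200 bases and no other annotated gene between them. Their log2 differences had opposite signs in each of the 3 animals: -0.44, -0.69 and -0.15 for Sar1b and 0.44, 0.31 and 0.04 for Sec24a in BW35770, BW35772 and BW35773. Neither was called.

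Creb3l3, a CREB3 relative best known from liver and intestine, was read at 25.2, 33.2 and 23.3 CPM in the controls of these fibroblast cultures and at 21.5, 25.0 and 22.4 CPM with tunicamycin, and was lower in all 3 animals without a call (edgeR adjusted p = 0.575).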
